A study of Mus musculus with 8 samples.

Results

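Cultured neural stem cells were set against the pluripotent lines made from such cells with small molecules. The comparison used 4 of the 8 mouse libraries of the series, chosen by their labels: 1 library of neural stem cells (NSC) and 1 library for each of 3 chemically induced pluripotent stem cell lines of neural origin (NSC-CiPSC lines 1, 2 and 3). NSC were at passage 2 and had been isolated from E13.5 embryos. Their strain label names a cross of C57BL/6J mice carrying the Tg(GOFGFP)11Imeg transgene with ICR mice. The labels of lines 1, 2 and 3 name the same cross with the serial numbers 12, 13 and 14 in place of 11. No further allele or agent is given for these groups in the sources used here. Nothing in the labels ties the lines to separate animals, and p-values therefore measure only the spread among these cultures, which may be technical. The other 4 libraries entered the fit and serve as reference: primary small intestinal epithelial cells (IEC) of E13.5 embryos, 2 IEC-derived lines (IEC-CiPSC lines 10 and 13) and R1 embryonic stem cells (ESC). The labels of IEC and of IEC-CiPSC lines 10 and 13 name the cross given for NSC, with the serial numbers 15, 16 and 17, and that of ESC names the strains 129X1 and 129S1.

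Neural stem cells of the embryonic brain divide and give rise to neurons and glia. In culture they keep the transcription factors and surface proteins of neural progenitors and many genes of astrocytes. Pluripotent stem cells form a compact epithelium, divide rapidly and can give rise to all tissues of the embryo. Turning one cell into the other without added genes requires the neural programme to be shut and the pluripotent one to be opened.

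Levels are in FPKM, the fragments mapped to a gene per kilobase of its transcript, scaled to the size of the library, and a level of 0 is as listed in the files. Levels of the lines are always given in the order lines 1, 2 and 3, or as a mean ± SD (n = 3). Changes are differences of log2(FPKM + 1), lines minus NSC, a scale on which low genes appear to change less than they do. A gene was called, and is said to have risen or fallen, at an adjusted p under 0.05 and a change of at least 2-fold in limma with Benjamini-Hochberg adjustment over 14947 genes. NSC has 1 library, without an SD, and is assumed to vary like the lines. Estimated depth was 9.34 M fragments in NSC and 8.82 M to 9.95 M in the lines. Mitochondrial transcripts held 11.6% of the FPKM sum in NSC and 5.61%, 1.94% and 3.85% in the lines, and their part in the results was not tested beyond the rescaling given with the overall counts. In bulk RNA, fewer cells of a type and less RNA per cell cannot be told apart.

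The labels were checked against 8 lists of marker genes. All 16 neural stem cell markers found were at FPKM 1 or more in NSC, as were 7 of 7 astrocyte markers and 7 of 11 neuron markers, while 0 of 10 microglia and 0 of 7 endothelium markers were. Of the same 16, 10, 10 and 9 were at 1 or more in lines 1, 2 and 3, and their summed level was 6786 in NSC and 302, 279.1 and 269 in the lines. All 10 pluripotency markers were at 10 or more in every line, and in NSC 4 were at 1 or more and 0 at 10 or more. Of 10 fibroblast and feeder markers, 4 were at 1 or more in each line, with summed levels of 32.18, 21.02 and 17.57, and Lum and Fap were listed at 0. In NSC the same sum was 231.6, of which Thy1, a surface protein shared by neurons and fibroblasts, held 227. Of 7 endothelium markers, 3, 4 and 3 were at 1 or more in the lines, led by Pecam1, an adhesion molecule that pluripotent cells also carry, at 16.1, 30.6 and 25.7, while Cdh5 and Emcn were listed at 0. The only microglia marker at 1 or more in a line was Cd68, a lysosomal glycoprotein, which was at 0.827 in NSC and 9.82, 11.3 and 5.67 in the lines. Of 8 oligodendrocyte lineage markers, 3 were at 1 or more in NSC and 1, 2 and 3 in the lines. Sox10, Mag and Mog of that list were listed at 0 in NSC. In each line 6 of 11 neuron markers were at 1 or more, against 7 in NSC, so this count hardly separates the groups. Among the neuron markers Stmn2, a microtubule regulator of growing axons, was low in NSC at 0.179. Its level was 68.2, 151.2 and 130.0 in the lines and 163 in ESC.

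A large share of genes differed between NSC and the lines. Of 14947 genes tested, 6858 (45.9%) were called, 3235 higher (21.6%) and 3623 lower (24.2%) in the lines, and the median change over all genes was 0.04. In all 6858 the NSC level lay outside the range of the 3 lines, which largely follows from the rule for a call. The authors' 95% interval in NSC lay apart from those of all 3 lines in 6367 of the called genes and in 59.6% of all tested. Changes of at least 8-fold were found for 473 genes that rose and 698 that fell. The median size of a called change was 1.74 on the log2 scale, and the lines spanned a median of 0.373 on that scale over all genes. With the FPKM rescaled without mitochondrial and selenoprotein genes, a choice made after seeing the data, the median over all genes was -0.20, and 2612 genes rose and 4363 fell.

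By level alone, 528 genes (3.53%) were lost, which means FPKM 5 or more in NSC and under 1 in all 3 lines. Another 412 (2.76%) were gained, under 1 in NSC and 5 or more in all 3 lines, and 7112 (47.6%) were kept at 5 or more in all 4 libraries. Among the kept genes 1361 rose, 1126 fell and 4625 were not called, so 35% of them were called. Just inside the lost set, Grm3 was at 5.05 in NSC and listed at 0 in all 3 lines, and just outside it Tns1 was at 4.95 in NSC and 0.376, 0.821 and 0.65 in the lines. Just inside the gained set, Tmc5 was at 0.377 in NSC and 6.20, 5.01 and 9.15 in the lines, and just outside it Scube3 was at 0.206 in NSC and 4.99, 8.29 and 8.07 in the lines. These 4 genes were picked for their distance from the limits after their values were seen.

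Deep falls were seen in genes of neural progenitors and astrocytes. Fabp7, a fatty acid binding protein of radial glia, was at 4546 in NSC and 0.327, 5.78 and 0.32 in the lines, and fell by 10.96 on the log2 scale (SE 1.04, adjusted p = 0.000938). Ptn, a secreted growth factor of the developing brain, was at 813 in NSC and 0.64, 0.473 and 0.105 in the lines, and fell by 9.20 on the log2 scale (SE 0.26, adjusted p = 4.89e-05). Line 2 held the highest Fabp7 level of the 3 and line 3 the lowest Ptn level. The matricellular glycoprotein Sparcl1 fell by 8.64 from 484 in NSC to between 0.0332 and 0.589 in the lines and the endothelin receptor Ednrb fell by 8.42 from 405 in NSC to between 0.0517 and 0.379 in the lines. Gpm6b, a membrane proteolipid of neurons and glia, was at 371 in NSC and 0.294, 0.576 and 0.0666 in the lines, and the cell cycle regulator Ccnd2 was at 552 in NSC and 1.14, 1.36 and 0.673 in the lines (log2 change -8.08, adjusted p = 5.84e-05). Mt3, the brain metallothionein, was at 1538 in NSC and 11.04, 10.2 and 6.39 in the lines (log2 change -7.27, adjusted p = 0.000511). The ranges of NSC and the lines were far apart in every one of them, which follows from their choice by size of change.

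Steep rises joined pluripotency genes with genes of other tissues. Dppa5a, an RNA-binding protein of pluripotent cells, was at 4.48 in NSC and 2754, 4321 and 3559.7 in the lines, and rose by 9.31 on the log2 scale (SE 0.26, adjusted p = 4.65e-05). Tdgf1, the Nodal co-receptor, was at 0.708 in NSC and 528, 646 and 596 in the lines, and rose by 8.43 on the log2 scale (SE 0.13, adjusted p = 2.92e-05). Mylpf, a fast muscle myosin light chain, was at 1.10 in NSC and 739, 677 and 625 in the lines, and rose by 8.34 on the log2 scale (SE 0.11, adjusted p = 2.92e-05), with 311 in ESC. Hspb1, a small heat shock protein, was at 1.39 in NSC and 533, 642 and 551 in the lines, and the RNA-binding protein Igf2bp1 was at 0.239 in NSC and 137, 109 and 89.3 in the lines, and both rose. Rbmxl2, a testis-enriched RNA-binding protein, was listed at 0 in NSC and at 74.0, 82.1 and 93.0 in the lines (log2 change 6.39, adjusted p = 3.87e-05). Fbxo15, an F-box protein long used as a pluripotency reporter, was at 0.248 in NSC and 106, 177 and 127.6 in the lines (log2 change 6.76, adjusted p = 0.000117). The 3 lines lay within a range of less than 2-fold of one another for each of these 7 genes. None overlapped NSC, which follows from their choice by size of change.

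**Figure D1:**
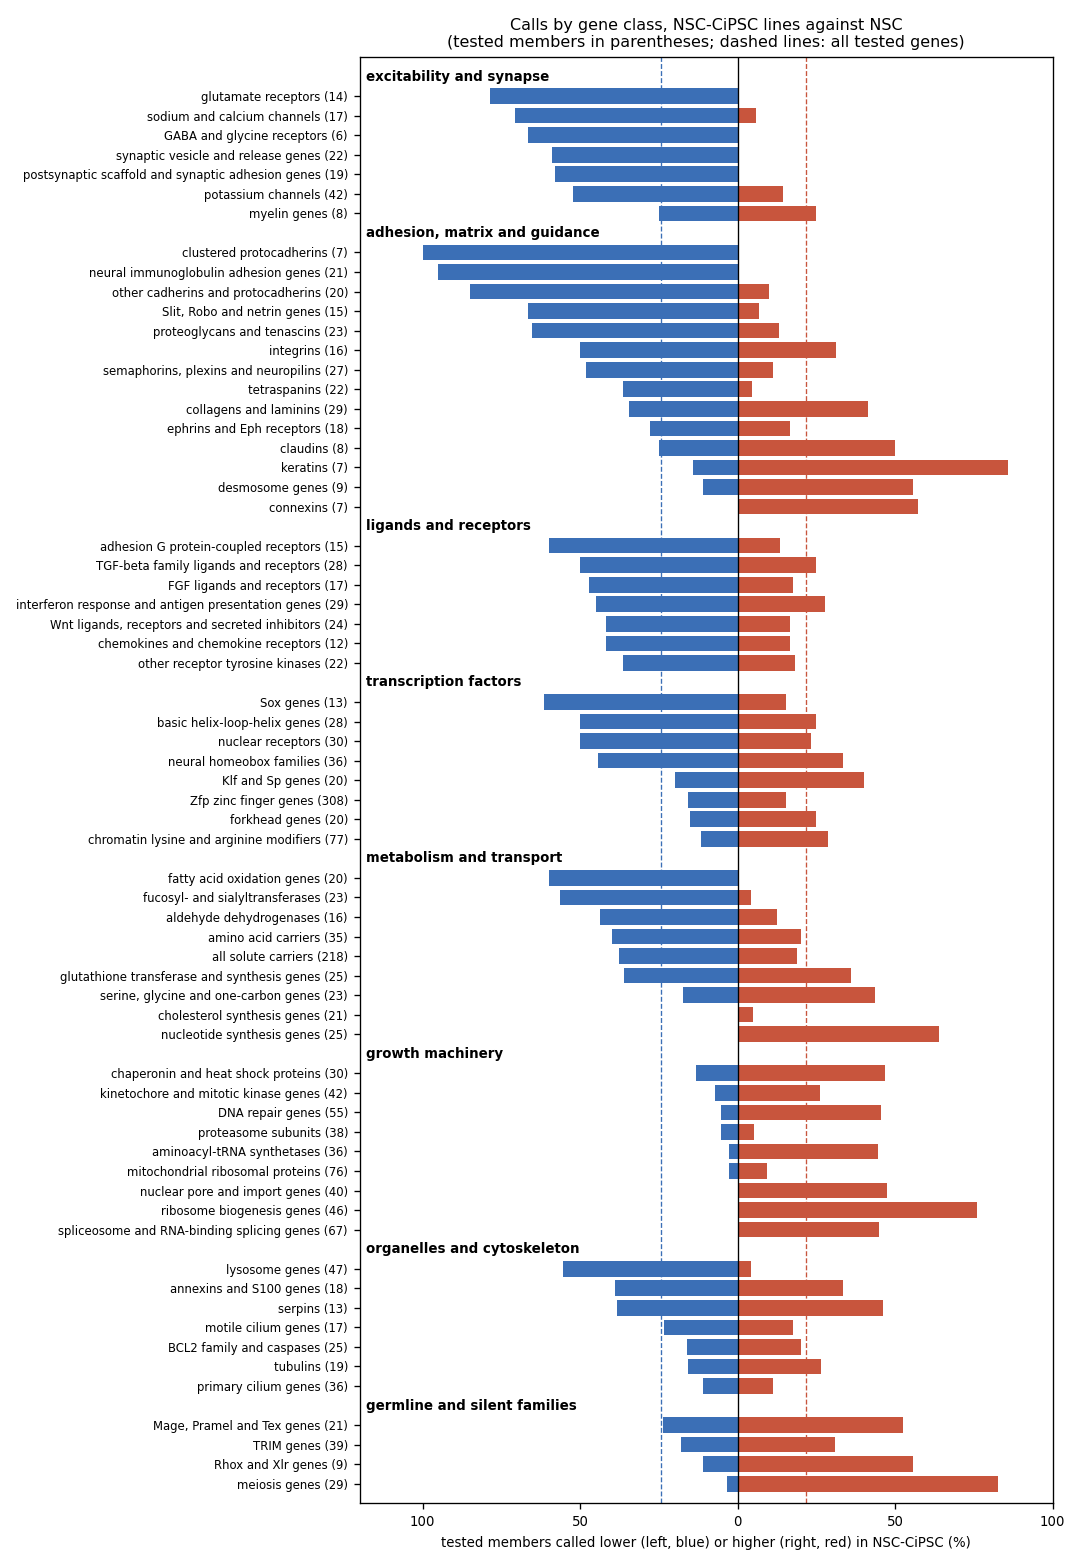
Share of tested members called lower (left) and higher (right) in the NSC-CiPSC lines in each gene class with at least 5 tested members, with the background over all genes (24.2% lower, 21.6% higher) marked. Classes of neural adhesion and excitability lie to the left of the plot, with 20 of 21 immunoglobulin adhesion genes lower, and ribosome biogenesis, meiosis and keratin genes to the right, with 35 of 46, 24 of 29 and 6 of 7 higher. Members of the keratin and meiosis classes passed the FPKM filter mostly through the lines, and those of the immunoglobulin adhesion class mostly through NSC.

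Beyond the top genes, 68 gene classes were followed, of which 65 had at least 5 tested members. More members fell than rose in 35 of these, more rose than fell in 26, and the counts were equal in 4. In 7 classes at least 1 member fell and none rose, and in 6 at least 1 rose and none fell. The plot of called shares by class shows how far each class lies from the 24.2% lower and 21.6% higher over all genes. Counts of members are described beside these shares and were not tested as sets. A gene was tested only at FPKM 1 or more in NSC or a line. A member silent in NSC could thus only rise, and a member silent in the lines could only fall. Of 47 keratin entries 7 were tested, with 1 at this level in NSC and 7, 7 and 6 in the lines. For meiosis genes 29 of 41 were tested, with 6 in NSC and 25, 28 and 27 in the lines. For clustered protocadherins 7 of 24 were tested, with 7 in NSC and 1 in each line. The neural immunoglobulin adhesion class had 21 of 29 tested, with 20 in NSC and 4, 4 and 5 in the lines. Of 25 claudins 8 were tested, with 2 in NSC and 6, 8 and 6 in the lines. Desmosome genes had 9 of 17 tested (3 in NSC and 7, 8 and 8 in the lines) and connexins 7 of 20 (2 in NSC and 5, 7 and 6 in the lines).

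Promoters of 3 genes, of which 2 rose and 1 fell, are shown because they carry the same letters. They were chosen after the values and the matches were seen. The octamer core ATGCAAA, read on either strand, is the core of the site that POU factors such as Pou5f1 recognise. It was present in 4.63% of all 32851 promoters of 300 bases in the RefSeq table (build GRCm38.p6). Each run covers 250 bases before to 50 after the gene start, 5′ to 3′ on the gene's strand, with the octamer core or its reverse complement in capitals. Nanog lies at chr6:122707239-122707538 (+ strand), Zfp42 at chr8:43306960-43307259 (- strand) and Tuba1a at chr15:98953452-98953751 (- strand).
Nanog: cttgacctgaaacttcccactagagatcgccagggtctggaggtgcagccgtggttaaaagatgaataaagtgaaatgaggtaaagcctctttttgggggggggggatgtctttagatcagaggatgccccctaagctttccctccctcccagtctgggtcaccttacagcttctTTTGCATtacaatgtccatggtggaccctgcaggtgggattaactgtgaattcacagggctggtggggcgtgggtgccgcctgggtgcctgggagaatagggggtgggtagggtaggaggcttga
Zfp42: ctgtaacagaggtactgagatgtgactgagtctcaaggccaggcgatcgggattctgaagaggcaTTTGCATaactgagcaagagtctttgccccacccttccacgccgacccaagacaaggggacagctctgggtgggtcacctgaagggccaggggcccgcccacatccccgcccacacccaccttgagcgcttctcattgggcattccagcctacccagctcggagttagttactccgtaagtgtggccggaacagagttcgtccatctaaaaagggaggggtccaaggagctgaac
Tuba1a: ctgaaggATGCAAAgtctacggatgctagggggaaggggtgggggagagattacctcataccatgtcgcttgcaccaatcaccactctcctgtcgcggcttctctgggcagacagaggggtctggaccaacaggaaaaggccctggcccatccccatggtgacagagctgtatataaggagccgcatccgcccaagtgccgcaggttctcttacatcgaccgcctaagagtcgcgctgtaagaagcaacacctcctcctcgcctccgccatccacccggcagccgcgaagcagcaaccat

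The octamer letters began at position -75 relative to the start in Nanog, -185 in Zfp42 and -243 in Tuba1a. Nanog, a core pluripotency factor, was at 0.455 in NSC and 218, 441 and 383 in the lines, and rose by 7.84 on the log2 scale (SE 0.41, adjusted p = 0.000181). Zfp42, a zinc finger gene of naive pluripotent cells, was at 0.255 in NSC and 238, 146 and 158 in the lines, and rose by 7.14 on the log2 scale (SE 0.31, adjusted p = 0.000117). Tuba1a, the major tubulin of young neurons, was at 842 in NSC and 349, 296 and 274 in the lines, and fell by 1.46 on the log2 scale (SE 0.16, adjusted p = 0.00136). The letters therefore stood in promoters of genes that rose and of a gene that fell, and a match describes the sequence alone. The table held a promoter for 67.2% of tested genes, 64.8% of lost and 58.0% of gained genes, which is under the 80% set as the least for comparing sets, so no shares of promoters are compared. For the same reason the matches of the other motifs searched are not given. Over all promoters in the table, on both strands and with overlaps between motifs allowed, TATAAA was present in 13.6%, GGGCGG in 35.7%, CANNTG in 72.3% and CAGCACC in 7.14%.

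Most genes of electrical signalling fell. Of 14 glutamate receptor genes tested, which encode the channels and receptors of excitatory synapses, 0 rose, 11 fell and 3 were not called. Their median change was -2.51 against 0.04 over all genes. Of 27 entries, 12 were at FPKM 1 or more in NSC and 2, 2 and 3 in the lines. Most tested members thus passed the filter through NSC, which favours falls. Of the 11, 7 were lost, and the summed level of the class was 223 in NSC and 7.72, 10.7 and 10.97 in the lines. Grm5, a metabotropic receptor of progenitors and neurons, was at 75.7 in NSC and 0, 0.128 and 0 in the lines, and fell by 6.20 on the log2 scale (SE 0.12, adjusted p = 2.92e-05). Gria2, the AMPA receptor subunit that sets calcium permeability, was at 39.3 in NSC and 0.0145, 0.0806 and 0 in the lines, and fell by 5.29 on the log2 scale (SE 0.10, adjusted p = 2.92e-05). The NMDA receptor subunit Grin3a fell by 4.74 from 26.8 in NSC to between 0.0267 and 0.0596 in the lines, and the AMPA subunit Gria3 fell by 3.88 from 18.5 in NSC to between 0.231 and 0.448 in the lines. Grik3, a kainate receptor subunit, was low throughout, at 0.657 in NSC against 1.56 ± 0.253 in the lines, with a log2 change of 0.62 (adjusted p = 0.0292), and at 7.06 in ESC. With a pseudocount of 0.1 in place of 1 it was called and rose by 1.12 (adjusted p = 0.0222).

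Inhibitory receptors were fewer. Of 6 tested GABA and glycine receptor genes, 0 rose, 4 fell and 2 were not called. Gabrg1, a GABA-A receptor subunit, was at 14.1 in NSC and 0.0423, 0.0469 and 0.0208 in the lines, and fell by 3.86 on the log2 scale (SE 0.08, adjusted p = 2.92e-05), while the glycine receptor subunit Glrb fell by 3.26 from 21.2 in NSC to between 0.856 and 1.81 in the lines. Gabbr1, the metabotropic GABA receptor, was at 36.4 in NSC and 29.3, 31.3 and 39.2 in the lines, with a log2 change of -0.13 (adjusted p = 0.548), and it held 88.0% of the summed level of the class in the lines. Of 17 sodium and calcium channel genes, 1 rose, 12 fell and 4 were not called, with a median of -1.70. Cacng4, an AMPA receptor auxiliary subunit, was at 25.5 in NSC and 0.176, 0.65 and 0.423 in the lines (log2 change -4.24, adjusted p = 0.000191). The member of the same family that rose was Cacng6, a calcium channel gamma subunit, which was at 0.643 in NSC and 6.73, 17.2 and 10.8 in the lines (log2 change 2.85, adjusted p = 0.00811) against 1.67 in ESC. Cacna1a, a pore subunit of presynaptic calcium channels, was at 5.75 in NSC and 8.81, 14.7 and 9.33 in the lines, with a log2 change of 0.79 (adjusted p = 0.0799).

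Potassium channels fell in larger number than they rose. Of 42 tested, 6 rose, 22 fell and 14 were not called, and 34 members were at FPKM 1 or more in NSC against 15, 17 and 16 in the lines. Kcnj10, the inward rectifier of astrocytes, was at 77.1 in NSC and 0.167, 0.206 and 0.109 in the lines, and fell by 6.07 on the log2 scale (SE 0.11, adjusted p = 2.92e-05). Kcnd3, a voltage-gated channel, fell by 5.03 from 33.8 in NSC to between 0.0501 and 0.0788 in the lines (adjusted p = 2.92e-05). The channel gained was Kcnk5, an acid-sensitive leak channel, which was at 0.994 in NSC and 15.9, 14.2 and 14.4 in the lines (log2 change 2.99, adjusted p = 0.000231) and held 25.6% of the class's summed level in the lines. Kcnk1, another leak channel, was at 5.95 in NSC and 5.22, 4.14 and 4.85 in the lines, with a log2 change of -0.28 (adjusted p = 0.22). In NSC the leading member was Kcnj10, with 23.2% of the sum.

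Synaptic genes also fell more often than they rose. Of 22 tested vesicle and release genes, 0 rose, 13 fell and 9 were not called, and their summed level was 634 in NSC and 43.1, 59.4 and 54.5 in the lines. Rab3b, a vesicle GTPase, was at 222 in NSC and 1.61, 4.58 and 2.48 in the lines (log2 change -5.91, adjusted p = 0.000697), and Syt11, a synaptotagmin, was at 209 in NSC and 5.13, 3.62 and 3.38 in the lines (log2 change -5.40, adjusted p = 0.000159). Cplx2, which clamps fusion at the synapse, was at 30.4 in NSC and 0.358, 0.238 and 0.361 in the lines, and fell by 4.58 on the log2 scale (SE 0.13, adjusted p = 4.64e-05). The priming factors Unc13a and Unc13b stood at 3.59 in NSC against 3.35 ± 1.59 in the lines and 4.15 in NSC against 3.53 ± 0.984 in the lines, with log2 changes of -0.15 and -0.21 that were not called (adjusted p = 0.79 and 0.563). Of 19 postsynaptic scaffold and synaptic adhesion genes, 0 rose, 11 fell and 8 were not called. Nlgn3, a postsynaptic adhesion molecule, fell by 3.71 from 13.4 in NSC to between 0.0204 and 0.253 in the lines. Dlg4, the main scaffold of excitatory synapses, fell by 3.32 from 35.7 in NSC to between 2.20 and 3.06 in the lines, while Dlgap4 was at 39.6 in NSC and 28.0, 37.7 and 34.8 in the lines, with a log2 change of -0.25 (adjusted p = 0.286). Myelin genes had 2 members that rose and 2 that fell of 8 tested, and Cnp, an enzyme of oligodendrocytes, was at 25.3 in NSC and 7.58, 12.8 and 10.8 in the lines (log2 change -1.24, adjusted p = 0.0196), and was not called without line 3 (adjusted p = 0.0519).

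Most cadherins fell, and the cadherin of epithelia rose. Of 20 tested cadherins and non-clustered protocadherins, 2 rose, 17 fell and 1 was not called, with a median of -3.41, and 10 were lost. Cdh2, the cadherin of neural epithelium, was at 130.4 in NSC and 1.59, 1.32 and 1.14 in the lines, and fell by 5.81 on the log2 scale (SE 0.18, adjusted p = 5.67e-05). Cdh20 fell by 5.03 from 39.6 in NSC to between 0.15 and 0.33 in the lines and Pcdh10 fell by 5.34 from 40.5 in NSC to between 0 and 0.0532 in the lines. The members that rose were Cdh1, the cadherin of epithelia, which was at 0.203 in NSC and 69.5, 82.8 and 85.5 in the lines (log2 change 6.05, adjusted p = 3.85e-05), and Cdh3, the placental cadherin, which was listed at 0 in NSC and at 5.26, 5.99 and 5.67 in the lines (log2 change 2.73, adjusted p = 0.000378). Cdh1 alone held 83.7% of the summed level of this family in the lines, and Cdh2 held 31.7% of it in NSC.

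All 7 tested entries of clustered protocadherins, which give neurons their surface identity, fell. Pcdhga9 was at 317 in NSC and 9.20, 8.31 and 9.77 in the lines (log2 change -4.98, adjusted p = 3.85e-05) and held 92.4% of the class's summed level in NSC, but members of the gamma cluster share exons, so its level cannot be told from that of its neighbours. Of 21 neural immunoglobulin adhesion genes, 0 rose, 20 fell and 1 was not called, with a median of -3.05, and 9 were lost. Cntn1, a contactin of axons, was at 63.7 in NSC and 0.071, 0.137 and 0.0505 in the lines, and fell by 5.90 on the log2 scale (SE 0.11, adjusted p = 2.92e-05). Ntm was at 93.4 in NSC and 0.941, 0.443 and 0.277 in the lines, and fell by 5.95 on the log2 scale (SE 0.28, adjusted p = 0.000137). Of the guides of axons and neurites, Lsamp fell by 5.05 and Chl1 fell by 4.76 (adjusted p = 2.92e-05 and 2.92e-05) from 33.3 and 26.9 in NSC. The member that was not called was L1cam, an axonal adhesion molecule, which was at 0.399 in NSC and 0.683, 0.658 and 1.63 in the lines, with a log2 change of 0.47 (adjusted p = 0.219), and at 3.40 in ESC.

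Guidance molecules, which steer growing axons and migrating cells, fell more often than they rose. Among 27 tested semaphorins, plexins and neuropilins, 3 rose, 13 fell and 11 were not called. Sema6d was at 67.3 in NSC and 0.0324, 0.213 and 0.0159 in the lines, and fell by 5.98 on the log2 scale (SE 0.15, adjusted p = 3.85e-05). Sema6c, of the same subfamily, was at 3.16 in NSC and 6.04, 11.7 and 13.7 in the lines (log2 change 1.40, adjusted p = 0.0434), so the Sema6 genes did not all move together, although the call of Sema6c was lost in 5 of 13 alternatives. These were the fits without line 2 or line 3 (adjusted p = 0.102 and 0.0876), on the 4 libraries only (adjusted p = 0.0897), with no filter on low values (adjusted p = 0.0749) and after the rescaling (adjusted p = 0.062). Plxna1, a semaphorin receptor, was at 24.1 in NSC and 16.8, 18.5 and 19.1 in the lines, with a log2 change of -0.40 (adjusted p = 0.0365). Of 15 Slit, Robo and netrin genes, 1 rose, 10 fell and 4 were not called. The netrin gene Ntn4 fell by 4.36 from 21.5 in NSC to between 0.0281 and 0.138 in the lines, and Robo2, a Slit receptor, fell by 4.23 from 18.1 in NSC to between 0 and 0.054 in the lines. Among 18 ephrins and Eph receptors, 3 rose, 5 fell and 10 were not called, near the shares over all genes. Epha5, a receptor of the forebrain, was at 22.1 in NSC and 0, 0.105 and 0.0463 in the lines, and fell by 4.46 on the log2 scale (SE 0.10, adjusted p = 3.54e-05). Epha2, a receptor of epithelial and pluripotent cells, was at 2.44 in NSC and 111.8, 45.7 and 59.5 in the lines, and rose by 4.31 on the log2 scale (SE 0.50, adjusted p = 0.00172), with line 1 highest.

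Integrins, the receptors for extracellular matrix, moved in both directions. Of 16 tested, 5 rose, 8 fell and 3 were not called. Itgb8 was at 34.9 in NSC and 0.0118, 0.0652 and 0 in the lines, and fell by 5.13 on the log2 scale (SE 0.10, adjusted p = 2.92e-05), while the laminin receptor subunit Itga7 fell by 3.43 from 16.4 in NSC to between 0.355 and 0.822 in the lines. In the other direction, Itga3, also a laminin receptor subunit, was at 1.17 in NSC and 18.99, 12.1 and 14.4 in the lines, and rose by 2.87 on the log2 scale (SE 0.26, adjusted p = 0.000865). Itgb7, known from leukocytes, was listed at 0 in NSC and at 4.78, 6.25 and 5.08 in the lines (log2 change 2.66, adjusted p = 0.00037), and was at 8.04 in ESC. Itgb5 was at 39.1 in NSC and 24.1, 17.3 and 17.2 in the lines, with a log2 change of -0.98 (adjusted p = 0.0155), and it was called in 3 alternatives, falling by 1.13 without line 1, by 1.25 after the rescaling and by 1.01 with a pseudocount of 0.1.

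Keratins and junction genes rose more often than they fell. Of 7 tested keratins, 6 rose, 1 fell and 0 were not called, and the summed level of the class was 5.59 in NSC and 123.7, 89.1 and 70.8 in the lines. Krt18 was listed at 0 in NSC and at 52.1, 29.6 and 24.1 in the lines, and rose by 5.10 on the log2 scale (SE 0.48, adjusted p = 0.000896), and its filament partner Krt8 was at 0.0635 in NSC and 50.2, 28.0 and 23.01 in the lines, and rose by 4.95 on the log2 scale (SE 0.44, adjusted p = 0.000799). Both were highest in line 1, and all 3 lines lay above ESC, where Krt18 was at 5.16 and Krt8 at 10.002, although neither differed from ESC by test (adjusted p = 0.0764 and 0.144). Krt42 was listed at 0 in NSC and at 7.05, 10.3 and 9.26 in the lines, and Krt19, of simple epithelia, was listed at 0 in NSC and at 3.19, 9.55 and 4.87 in the lines. Of 8 tested claudins, which seal tight junctions, 4 rose, 2 fell and 2 were not called. Cldn4 was listed at 0 in NSC and at 45.5, 63.3 and 58.3 in the lines, and rose by 5.81 on the log2 scale (SE 0.23, adjusted p = 9.44e-05). Cldn6 was listed at 0 in NSC and at 20.5, 27.7 and 23.6 in the lines (log2 change 4.63, adjusted p = 0.000137), against 5.34 in ESC. Claudins that fell were Cldn25 and Cldn12, at 86.5 in NSC against 19.96 ± 1.21 in the lines and 27.0 in NSC against 11.2 ± 0.168 in the lines.

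Desmosomes, which anchor keratin filaments between cells, had 5 members that rose, 1 that fell and 3 not called of 9 tested. Dsg2 was at 0.136 in NSC and 10.7, 11.1 and 9.22 in the lines, and rose by 3.31 on the log2 scale (SE 0.17, adjusted p = 0.000179), and the plakophilins Pkp2 and Pkp3 rose by 3.22 and 3.14 (adjusted p = 0.000267 and 0.000361). The plaque protein Jup was at 21.8 in NSC against 26.6 ± 5.37 in the lines, with a log2 change of 0.26 (adjusted p = 0.385). Of 7 tested connexins, the subunits of gap junctions, 4 rose, 0 fell and 3 were not called. Gjb5 was at 0.067 in NSC and 10.6, 19.05 and 17.3 in the lines (log2 change 3.92, adjusted p = 0.000749). Gja1, the connexin of astrocytes, was at 91.0 in NSC and 67.4, 17.7 and 24.03 in the lines, with a log2 change of -1.54 (adjusted p = 0.128), and the lines spread widely. Without line 1 it fell by 2.09 (adjusted p = 0.00267). Gja1 held 90.8% of the summed connexin level in NSC.

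**Figure D2:**
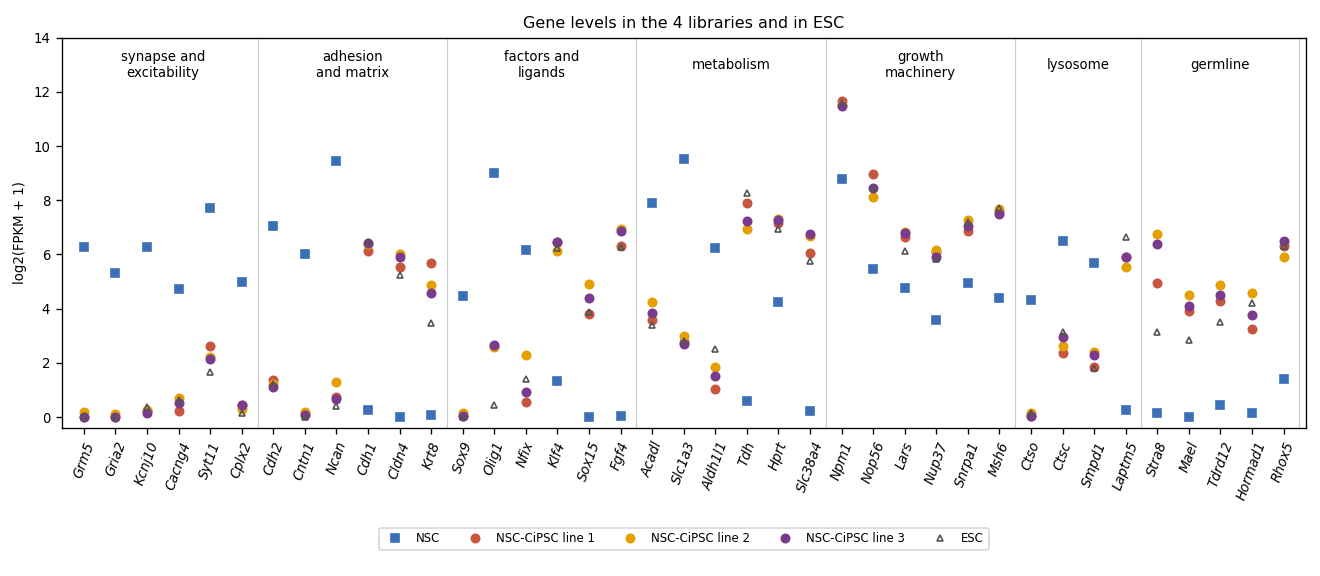
Levels as log2(FPKM + 1) of genes from 7 groups of classes in NSC (squares), the 3 NSC-CiPSC lines (circles, coloured by line) and ESC (open triangles). For every gene plotted the 3 circles lie on the same side of the NSC square, with Cdh1, Cldn4 and Krt8 above it and Grm5, Gria2 and Cntn1 below it.

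Most proteoglycan and tenascin genes fell. Of 23 tested proteoglycans and tenascins, 3 rose, 15 fell and 5 were not called, and their summed level was 1498 in NSC and 192, 220.0 and 219 in the lines. Ncan, a hyaluronan-binding proteoglycan of brain, was at 696 in NSC and 0.69, 1.45 and 0.61 in the lines, and fell by 8.53 on the log2 scale (SE 0.29, adjusted p = 6.98e-05), and the related Bcan fell by 7.02 from 204 in NSC to between 0.411 and 0.837 in the lines. Hspg2, the basement membrane proteoglycan perlecan, was at 4.88 in NSC and 48.6, 34.2 and 45.6 in the lines, and rose by 2.88 on the log2 scale (SE 0.22, adjusted p = 0.000485). Agrn, another basement membrane proteoglycan, was at 42.2 in NSC and 39.3, 44.4 and 47.1 in the lines, with a log2 change of 0.04 (adjusted p = 0.788). Of 29 tested collagens and laminins, 12 rose, 10 fell and 7 were not called. Col9a2 was at 0.0745 in NSC and 4.02, 11.6 and 9.03 in the lines (log2 change 3.00, adjusted p = 0.00705). Col4a5, of basement membranes, was at 26.1 in NSC and 0.365, 0.389 and 0.351 in the lines (log2 change -4.31, adjusted p = 9.08e-05), and Col9a3 was at 16.5 in NSC and 0.875, 1.47 and 1.95 in the lines (log2 change -2.88, adjusted p = 0.00232). The chains Col9a2 and Col9a3 of the same collagen thus moved in opposite directions. Tetraspanins, which organise membrane proteins, had 1 member that rose and 8 that fell of 22, and Tspan7 was at 508 in NSC and 4.002, 10.7 and 9.09 in the lines (log2 change -5.92, adjusted p = 0.000731).

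Growth factor families held members of both directions. Of 17 tested FGF ligands and receptors, 3 rose, 8 fell and 6 were not called. Fgf4, the FGF of the early embryo, was at 0.0359 in NSC and 78.8, 122 and 114.6 in the lines, and rose by 6.65 on the log2 scale (SE 0.27, adjusted p = 0.0001). Fgf1, the FGF of adult brain, was at 53.3 in NSC and 0.345, 0.312 and 0.448 in the lines, and fell by 5.31 on the log2 scale (SE 0.17, adjusted p = 6.29e-05). Fgf17 was at 0.0685 in NSC and 7.73, 4.13 and 7.96 in the lines (log2 change 2.79, adjusted p = 0.00274), and the receptor Fgfr2 was at 39.5 in NSC and 5.23, 1.64 and 5.19 in the lines (log2 change -3.12, adjusted p = 0.00686), lowest in line 2. Of 28 tested members of the TGF-beta family, 7 rose, 14 fell and 7 were not called. Nodal, which patterns the early embryo, was at 0.107 in NSC and 33.1, 32.7 and 29.0 in the lines, and rose by 4.88 on the log2 scale (SE 0.15, adjusted p = 5.96e-05). Its antagonists Lefty1 and Lefty2 were at 0.144 in NSC and 55.3, 37.9 and 59.8 in the lines for Lefty1, and listed at 0 in NSC and at 29.6, 38.2 and 49.7 in the lines for Lefty2. Both Lefty genes stood above ESC, where Lefty1 was at 2.70 and Lefty2 at 5.40 (log2 difference 3.79 and 2.62, adjusted p = 0.0106 and 0.0296). On average the IEC-CiPSC lines also stood above ESC, with log2 changes from IEC of 4.05 for Lefty1 and 6.66 for Lefty2. Gdf3 was listed at 0 in NSC and at 50.1, 29.4 and 32.5 in the lines (log2 change 5.22, adjusted p = 0.000259), and the receptors Acvr1b and Tgfbr1 had log2 changes of 0.71 and -0.51 that were not called (adjusted p = 0.0823 and 0.0278).

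Of 24 tested Wnt ligands, receptors and secreted inhibitors, 4 rose, 10 fell and 10 were not called. Wnt7a, a Wnt of the developing cortex, was at 48.0 in NSC and 0.196, 0.217 and 0.192 in the lines, and fell by 5.35 on the log2 scale (SE 0.10, adjusted p = 2.92e-05). Wnt5a fell by 3.15 from 9.06 in NSC to between 0.0552 and 0.276 in the lines, and the receptor Fzd1 fell by 4.27 from 38.9 in NSC to between 0.765 and 1.32 in the lines. Another receptor, Fzd7, was at 3.51 in NSC and 13.7, 19.8 and 19.8 in the lines (log2 change 2.04, adjusted p = 0.00186), and the secreted inhibitor Sfrp1 was at 1.53 in NSC and 14.1, 28.0 and 27.7 in the lines (log2 change 3.20, adjusted p = 0.00266). The co-receptors Lrp5 and Lrp6 had log2 changes of 0.44 and -0.25 and were not called (adjusted p = 0.237 and 0.353). Among 22 other receptor tyrosine kinases, 4 rose, 8 fell and 10 were not called. Ntrk2, the receptor of the neurotrophin Bdnf, was at 80.6 in NSC and 0.151, 0.173 and 0.108 in the lines, and fell by 6.16 on the log2 scale (SE 0.11, adjusted p = 2.92e-05). Egfr, which drives NSC growth in culture, was at 26.2 in NSC and 0.812, 1.31 and 1.13 in the lines (log2 change -3.72, adjusted p = 0.000201), and Ddr1, a collagen receptor, was at 109 in NSC and 12.1, 7.18 and 8.07 in the lines (log2 change -3.48, adjusted p = 0.00063). Kit, the receptor of stem cell factor, was at 7.37 in NSC and 17.7, 34.6 and 31.1 in the lines (log2 change 1.73, adjusted p = 0.0162), and was not called without line 3 (adjusted p = 0.0505).

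Of 15 tested adhesion G protein-coupled receptors, 2 rose, 9 fell and 4 were not called. Gpr56, which acts in cortical development, was at 179 in NSC and 0.404, 0.724 and 0.391 in the lines, and fell by 6.91 on the log2 scale (SE 0.19, adjusted p = 4.7e-05), and Lphn3, a synaptic latrophilin, fell by 3.71 from 14.9 in NSC to between 0.134 and 0.255 in the lines. Cd97, known from leukocytes, was at 3.57 in NSC and 9.71, 25.6 and 20.8 in the lines (log2 change 2.01, adjusted p = 0.0247), and Gpr98 was at 0.984 in NSC and 5.33, 5.10 and 4.91 in the lines (log2 change 1.62, adjusted p = 0.00226). Cd97 was not called without line 3 or in the fit on the 4 libraries only (adjusted p = 0.0703 and 0.0598). Of 12 chemokines and their receptors, 2 rose, 5 fell and 5 were not called, and Cx3cl1, a membrane-bound chemokine of neurons, was at 23.3 in NSC and 0.591, 0.724 and 0.581 in the lines (log2 change -3.90, adjusted p = 0.000135). Of 29 genes of interferon response and antigen presentation, 8 rose, 13 fell and 8 were not called. Ifitm1, a transmembrane protein of germ cells and virus defence, was listed at 0 in NSC and at 44.2, 41.9 and 36.5 in the lines, and rose by 5.38 on the log2 scale (SE 0.13, adjusted p = 3.85e-05), and Ifitm2 was at 54.4 in NSC and 259.6, 483 and 396 in the lines (log2 change 2.73, adjusted p = 0.00241). The GTPases Gbp3 and Irgm1 were at 10.9 in NSC and 0.132, 0 and 0 in the lines for Gbp3, and at 13.8 in NSC and 1.79, 0.209 and 0.67 in the lines for Irgm1, and both fell. Interferon-linked genes therefore split, with the Ifitm genes above NSC and these GTPases below it.

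Most Sox genes fell. Of 13 tested Sox genes, 2 rose, 8 fell and 3 were not called, with a median of -3.08. Sox9, needed for glial fate, was at 21.2 in NSC and 0.0246, 0.109 and 0.0241 in the lines, and fell by 4.40 on the log2 scale (SE 0.10, adjusted p = 3.85e-05). Sox8 fell by 5.52 and Sox5 fell by 4.66 (adjusted p = 0.000289 and 3.62e-05) from 66.4 and 24.99 in NSC. Sox15, of a subgroup of its own, was listed at 0 in NSC and at 12.8, 29.2 and 19.8 in the lines, and rose by 4.36 on the log2 scale (SE 0.45, adjusted p = 0.00125), and Sox13 was at 1.73 in NSC and 10.3, 7.07 and 7.74 in the lines (log2 change 1.76, adjusted p = 0.00301). Sox2, shared by neural and pluripotent cells, was at 171 in NSC and 143, 138 and 143 in the lines, with a log2 change of -0.27 below 2-fold (adjusted p = 0.0331). It held 33.2% of the summed Sox level in NSC and 66.3% in the lines.

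Of 28 tested basic helix-loop-helix genes, 7 rose, 14 fell and 7 were not called. Olig1, of the oligodendrocyte lineage, was at 515 in NSC and 5.22, 5.02 and 5.27 in the lines, and fell by 6.39 on the log2 scale (SE 0.14, adjusted p = 3.62e-05). Olig1 and its neighbour Olig2 stood above their levels in ESC (0.347 and 0.0436) in all 3 lines, and Olig2 was at 191 in NSC and 11.1, 3.65 and 5.32 in the lines. For Olig1 the IEC-CiPSC lines also stood above ESC on average, with a log2 change of 2.69 from IEC. Tcf15, which marks cells leaving naive pluripotency, was at 0.263 in NSC and 56.1, 19.8 and 36.4 in the lines (log2 change 4.81, adjusted p = 0.00187), and Mycn was at 0.904 in NSC and 77.3, 18.6 and 28.5 in the lines (log2 change 4.23, adjusted p = 0.00771), both highest in line 1. Tcf3, a ubiquitous partner of such factors, was at 37.5 in NSC and 60.7, 65.6 and 66.5 in the lines, with a log2 change of 0.76 (adjusted p = 0.00202). Of 36 genes of neural homeobox families, 12 rose, 16 fell and 8 were not called. Pou3f3 was at 74.4 in NSC and 0.102, 0.225 and 0.166 in the lines, and fell by 6.02 on the log2 scale (SE 0.11, adjusted p = 2.92e-05), and Emx2, of the dorsal forebrain, fell by 4.54 from 24.6 in NSC to between 0 and 0.233 in the lines. Six4, of sensory and muscle development, rose by 2.75 (adjusted p = 0.00053) to 8.24 ± 0.942 (SD, n = 3).

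All 4 NFI genes, which promote glial differentiation, fell. Nfix was at 70.7 in NSC and 0.472, 3.93 and 0.889 in the lines (log2 change -4.91, adjusted p = 0.00341), Nfia was at 29.7 in NSC and 0.829, 0.534 and 0.337 in the lines (log2 change -4.30, adjusted p = 0.000156), and Nfib was at 38.8 in NSC and 1.51, 1.54 and 1.68 in the lines (log2 change -3.95, adjusted p = 9.3e-05). Nfic was at 25.6 in NSC and 6.88, 10.1 and 9.57 in the lines (log2 change -1.45, adjusted p = 0.0084) and was the NFI gene with the highest level in every line. Of 20 tested Klf and Sp genes, 8 rose, 4 fell and 8 were not called. Klf4, Klf5 and Klf2, factors of naive pluripotency, rose by 5.03, 4.43 and 4.42 (adjusted p = 6.29e-05, 0.000366 and 0.00015). Klf8 was at 0.163 in NSC and 9.82, 9.02 and 5.94 in the lines (log2 change 2.97, adjusted p = 0.0109), while Klf7, of neurons, was at 8.64 in NSC and 2.87, 2.28 and 1.76 in the lines (log2 change -1.56, adjusted p = 0.015) and Klf9 was at 26.0 in NSC and 38.5, 30.4 and 33.1 in the lines, with a log2 change of 0.37 (adjusted p = 0.111).

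Of 30 tested nuclear receptors, 7 rose, 15 fell and 8 were not called. Esrrb, an orphan receptor of the pluripotency network, was at 2.32 in NSC and 127, 122 and 129 in the lines, and rose by 5.25 on the log2 scale (SE 0.10, adjusted p = 2.92e-05), and Nr0b1, another orphan receptor of that network, was listed at 0 in NSC and at 54.9, 31.1 and 36.1 in the lines, and rose by 5.34 on the log2 scale (SE 0.35, adjusted p = 0.000316). Nr2f1, which patterns the cortex, was at 32.2 in NSC and 0.0406, 0.107 and 0.253 in the lines, and fell by 4.88 on the log2 scale (SE 0.16, adjusted p = 6.13e-05). Rarg, a retinoic acid receptor, was at 2.34 in NSC and 71.5, 43.3 and 40.8 in the lines (log2 change 3.94, adjusted p = 0.00112), while its relative Rarb, on chromosome 14, was at 2.47 in NSC and 0.479, 0.379 and 0.604 in the lines (log2 change -1.23, adjusted p = 0.000953). Of 20 forkhead genes, 5 rose, 3 fell and 12 were not called, near the shares over all genes, and 3 rose without line 3 or in the fit on the 4 libraries only. Foxh1, which acts downstream of Nodal, was at 0.185 in NSC and 31.6, 20.4 and 25.2 in the lines, and rose by 4.48 on the log2 scale (SE 0.26, adjusted p = 0.000238).

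Zinc finger genes were mostly not called. Of 308 tested Zfp zinc finger genes, 47 rose, 49 fell and 212 were not called, which is below the shares over all genes, and more members rose than fell with an FPKM filter of 5, with quantile normalization or without line 2, so no direction is given for the family. Zfp534, in a cluster on chromosome 4, was at 0.165 in NSC and 52.2, 21.4 and 25.2 in the lines (log2 change 4.75, adjusted p = 0.00136), and Zfp57, which guards imprints, was at 1.45 in NSC and 241, 98.1 and 130.0 in the lines (log2 change 5.90, adjusted p = 0.000695), with line 1 highest for both. Of 77 enzymes that modify lysine and arginine of chromatin, 22 rose, 9 fell and 46 were not called. Setd6 was at 3.46 in NSC and 36.6, 47.5 and 45.8 in the lines, and rose by 3.30 on the log2 scale (SE 0.24, adjusted p = 0.000414). Kdm5b, a histone demethylase of pluripotent cells, was at 11.3 in NSC and 54.9, 60.2 and 57.1 in the lines, and rose by 2.25 on the log2 scale (SE 0.10, adjusted p = 0.000126). Hdac9, a deacetylase of neurons and muscle, was at 6.41 in NSC and 0.115, 0.457 and 0.27 in the lines (log2 change -2.54, adjusted p = 0.000389). Dnmt3l, a partner of the DNA methyltransferases in germ cells, was at 0.483 in NSC and 257, 87.5 and 87.6 in the lines, and rose by 6.41 on the log2 scale (SE 0.67, adjusted p = 0.00126), with line 1 near the 301 of ESC and lines 2 and 3 below it.

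Carriers fell more often than they rose. Of 218 tested solute carriers, 41 rose, 82 fell and 95 were not called. Slc1a3, the glutamate transporter of radial glia and astrocytes, was at 739 in NSC and 5.82, 6.87 and 5.55 in the lines, and fell by 6.71 on the log2 scale (SE 0.17, adjusted p = 3.85e-05). Slc25a18, a mitochondrial glutamate carrier, was at 136 in NSC and 0.0837, 0.0925 and 0.082 in the lines, and fell by 6.98 on the log2 scale (SE 0.11, adjusted p = 2.92e-05). Slc2a3, a high-affinity glucose transporter, was at 13.96 in NSC and 283, 511 and 529.9 in the lines, and rose by 4.83 on the log2 scale (SE 0.39, adjusted p = 0.000564), with line 1 lowest. Slc38a4, an imprinted amino acid carrier, was at 0.163 in NSC and 65.8, 102 and 106 in the lines, and rose by 6.28 on the log2 scale (SE 0.30, adjusted p = 0.000151), and Slc7a3, a cationic amino acid carrier, was at 1.45 in NSC and 58.6, 23.3 and 33.2 in the lines (log2 change 3.90, adjusted p = 0.00288). Among the 35 amino acid carriers 7 rose, 14 fell and 14 were not called, and the general heavy chain Slc3a2 was at 101 in NSC and 94.99, 110.9 and 118 in the lines, with a log2 change of 0.09 (adjusted p = 0.574). The carrier with the highest level on both sides was the mitochondrial ADP/ATP carrier Slc25a5, at 1159 in NSC against 660.4 ± 20.7 in the lines, with a log2 change of -0.81 (adjusted p = 0.00152). Slc25a5 fell by 1.43 with quantile normalization and fell by 1.09 after the rescaling.

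Fatty acid oxidation, by which mitochondria burn lipid, fell without exception among called genes. Of 20 tested genes, 0 rose, 12 fell and 8 were not called, with a median of -1.28, and all 20 were kept at FPKM 5 or more in all 4 libraries. Acadl, a dehydrogenase for long chains, was at 239 in NSC and 10.99, 18.05 and 13.505 in the lines, and fell by 4.01 on the log2 scale (SE 0.28, adjusted p = 0.000402). Acadvl, for very long chains, fell by 3.20 from 155 in NSC to between 13.7 and 17.3 in the lines. Etfb, the electron acceptor of these enzymes, was at 224 in NSC and 107, 170.5 and 138 in the lines, with a log2 change of -0.72 (adjusted p = 0.062). The summed level of the class was 2353 in NSC and 671, 939.6 and 804 in the lines. Of 16 aldehyde dehydrogenases, 2 rose, 7 fell and 7 were not called, and Aldh1l1, the folate enzyme used as an astrocyte marker, was at 73.9 in NSC and 1.07, 2.64 and 1.87 in the lines (log2 change -4.75, adjusted p = 0.000941).

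Tdh, the threonine dehydrogenase that feeds glycine and acetyl-CoA in mouse pluripotent cells, was at 0.511 in NSC and 239.9, 122 and 149 in the lines, and rose by 6.76 on the log2 scale (SE 0.41, adjusted p = 0.000261), with 308 in ESC. Of 23 tested genes of serine, glycine and folate-linked carbon transfer, 10 rose, 4 fell and 9 were not called. Phgdh and Psat1, which make serine, had log2 changes of -0.29 and 0.50 and were not called (adjusted p = 0.402 and 0.0527), while Mthfd2l, a mitochondrial folate enzyme, was at 7.30 in NSC and 0.525, 0.317 and 0.14 in the lines (log2 change -2.65, adjusted p = 0.000385). Of 25 nucleotide synthesis genes, 16 rose, 0 fell and 9 were not called, with a median of 1.44. Hprt, which salvages purines, was at 18.2 in NSC and 141, 159 and 152 in the lines, and rose by 2.98 on the log2 scale (SE 0.10, adjusted p = 7.23e-05). Gart, Ppat and Pfas, which act in purine synthesis, rose by 2.84, 2.43 and 2.46 (adjusted p = 8.27e-05, 0.000238 and 0.000942). The ribonucleotide reductase subunits Rrm1 and Rrm2 were at 78.8 in NSC against 65.2 ± 3.53 in the lines and 172 in NSC against 283 ± 36.6 in the lines and were not called.

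Cholesterol synthesis differed little by these calls. Of 21 tested genes, 1 rose, 0 fell and 20 were not called, and after the rescaling without mitochondrial and selenoprotein genes more members fell than rose. Fdps was at 79.5 in NSC against 122 ± 40.1 in the lines, with line 1 at 75.9, and Hmgcs1 was at 156 in NSC against 92.1 ± 24.1 in the lines, and neither was called (adjusted p = 0.284 and 0.0821), although Hmgcs1 fell by 1.07 after the rescaling (adjusted p = 0.0238). Of 25 glutathione genes, 9 rose, 9 fell and 7 were not called. Gstm1 was at 234 in NSC and 14.1, 21.9 and 24.9 in the lines (log2 change -3.50, adjusted p = 0.000836), although Gstm genes are near-identical copies whose levels may share reads, and Mgst1, a membrane-bound transferase, was at 41.2 in NSC and 2.29, 3.15 and 1.11 in the lines (log2 change -3.78, adjusted p = 0.00197). Of 23 fucosyl- and sialyltransferases, which finish surface sugars, 1 rose, 13 fell and 9 were not called. St6galnac5, of brain gangliosides, was at 25.5 in NSC and 0.233, 0 and 0 in the lines, and fell by 4.63 on the log2 scale (SE 0.16, adjusted p = 6.66e-05), and Fut8, which adds core fucose, was at 50.3 in NSC and 6.11, 5.87 and 7.39 in the lines (log2 change -2.79, adjusted p = 0.000297).

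Most genes of ribosome assembly rose. Of 46 tested ribosome biogenesis genes, 35 rose, 0 fell and 11 were not called, with a median of 1.75 against 0.04 over all genes, and the summed level was 1876 in NSC and 8516, 7158 and 7190 in the lines. Npm1, the nucleolar chaperone, was at 435 in NSC and 3252, 2960.1 and 2881 in the lines, and rose by 2.80 on the log2 scale (SE 0.12, adjusted p = 0.000127). Nop56, of the box C/D particle, was at 42.97 in NSC and 505, 279.8 and 353 in the lines, and rose by 3.07 on the log2 scale (SE 0.34, adjusted p = 0.0015). Tcof1 and Dkc1, of ribosomal RNA transcription and modification, rose by 2.98 and 2.69 (adjusted p = 0.000256 and 0.00011). Rrp1 was at 185 in NSC and 139.9, 118 and 123.8 in the lines, with a log2 change of -0.54 (adjusted p = 0.0177), and Polr1d was at 99.9 in NSC and 187, 158 and 138 in the lines, with a log2 change of 0.67 (adjusted p = 0.0248). Of 36 aminoacyl-tRNA synthetases, 16 rose, 1 fell and 19 were not called. Lars, Gars and Iars rose by 1.99, 1.70 and 1.72 (adjusted p = 0.000203, 0.000561 and 0.000353), and Yars had a log2 change of 0.67 (adjusted p = 0.0212).

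Mitochondrial ribosome and proteasome genes were mostly not called. Of 76 mitochondrial ribosomal proteins, 7 rose, 2 fell and 67 were not called, and after the rescaling without mitochondrial and selenoprotein genes 3 rose and 4 fell. Mrps6 was at 191 in NSC and 34.2, 42.7 and 33.0 in the lines (log2 change -2.36, adjusted p = 0.000427), and Mrpl15 was at 63.5 in NSC and 164, 169 and 155 in the lines (log2 change 1.34, adjusted p = 0.000298). Of 38 proteasome subunits, 2 rose, 2 fell and 34 were not called. Psma8, a subunit of germ cells, was at 0.0683 in NSC and 12.8, 16.7 and 15.1 in the lines, and rose by 3.89 on the log2 scale (SE 0.19, adjusted p = 0.00015), and Psmb10, of the immunoproteasome, was at 34.9 in NSC and 11.97, 9.29 and 10.4 in the lines (log2 change -1.64, adjusted p = 0.00294). Psmb6, of the constitutive proteasome, was at 305 in NSC and 457, 496 and 449 in the lines, with a log2 change of 0.61 (adjusted p = 0.00542). Of 30 chaperonins and heat shock proteins, 14 rose, 4 fell and 12 were not called, and 8 rose after the rescaling. Hspb1 rose, while Hspb6, another small heat shock protein, was at 27.0 in NSC and 1.33, 1.85 and 1.58 in the lines (log2 change -3.44, adjusted p = 0.000209), and Hspa4l was at 23.5 in NSC and 1.43, 2.99 and 2.53 in the lines (log2 change -2.92, adjusted p = 0.00162). Hspa9, of mitochondria, was at 309 in NSC and 307, 335 and 325 in the lines, with a log2 change of 0.06 (adjusted p = 0.562).

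Of 40 nuclear pore and import genes, 19 rose, 0 fell and 21 were not called, and of 67 splicing genes, 30 rose, 0 fell and 37 were not called. After the rescaling without mitochondrial and selenoprotein genes 12 splicing genes rose. Nup37 and Nup43, of the outer ring of the pore, rose by 2.47 and 2.45 (adjusted p = 0.000174 and 0.000158). Snrpg, a core protein of spliceosomal particles, was at 268 in NSC and 1159, 1011 and 1146 in the lines, and rose by 2.03 on the log2 scale (SE 0.11, adjusted p = 0.000215). Hnrnpa2b1, the most abundant splicing gene in NSC, was at 742 in NSC and 762, 695 and 736 in the lines, with a log2 change of -0.02 (adjusted p = 0.844). Of 55 DNA repair genes, 25 rose, 3 fell and 27 were not called. The mismatch repair gene Msh6 was at 20.2 in NSC and 195, 205 and 179 in the lines, and rose by 3.19 on the log2 scale (SE 0.10, adjusted p = 6.13e-05). Ung, of base excision repair, rose by 2.51 (adjusted p = 0.000373), while Neil3, a glycosylase of dividing progenitors, was at 6.44 in NSC and 1.42, 2.04 and 2.53 in the lines (log2 change -1.33, adjusted p = 0.0082).

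Mitotic genes were mostly not called. Of 42 kinetochore and mitotic kinase genes, 11 rose, 3 fell and 28 were not called, with a median of 0.53, and 6 rose after the rescaling. Cdk1 was at 223 in NSC and 257, 295 and 261 in the lines, with a log2 change of 0.28 (adjusted p = 0.0742), and Ccnb1 was at 123.2 in NSC and 215, 230.5 and 228 in the lines, with a log2 change of 0.86 (adjusted p = 0.000949). Plk3, a stress-responsive kinase, was at 2.65 in NSC and 25.02, 25.1 and 25.1 in the lines, and rose by 2.84 on the log2 scale (SE 0.14, adjusted p = 0.000152), and Aurkc, the Aurora kinase of germ cells, was listed at 0 in NSC and at 4.08, 19.4 and 10.9 in the lines (log2 change 3.42, adjusted p = 0.0157). Without line 3 Aurkc was not called (adjusted p = 0.0505). Cenpb, a centromere protein, was at 95.6 in NSC and 30.1, 19.7 and 23.8 in the lines (log2 change -1.94, adjusted p = 0.00308).

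Lysosomal genes fell. Of 47 tested, 2 rose, 26 fell and 19 were not called, with a median of -1.23, and the summed level was 3941 in NSC and 1347, 1702 and 1592 in the lines. Ctso, a cathepsin, was at 19.2 in NSC and 0.0296, 0.0984 and 0.0291 in the lines, and fell by 4.27 on the log2 scale (SE 0.12, adjusted p = 4.9e-05). Ctsc, another cathepsin, was at 89.9 in NSC and 4.11, 5.16 and 6.70 in the lines, and fell by 3.87 on the log2 scale (SE 0.25, adjusted p = 0.000316), and Smpd1, which splits sphingomyelin, fell by 3.52 from 51.1 in NSC to between 2.59 and 4.23 in the lines. Laptm5, a lysosomal membrane protein of leukocytes, was at 0.203 in NSC and 58.9, 45.8 and 59.1 in the lines, and rose by 5.52 on the log2 scale (SE 0.18, adjusted p = 6.07e-05), with 97.8 in ESC. Cathepsins Ctsl and Ctsa were at 105 in NSC against 95.9 ± 10.9 in the lines and 58.3 in NSC against 60.5 ± 5.33 in the lines and were not called.

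Primary cilium genes had 4 members that rose, 4 that fell and 28 not called of 36, below the shares over all genes. After the rescaling 7 fell. Ift88, of ciliary transport, was at 1.23 in NSC and 9.66, 8.87 and 7.61 in the lines, and rose by 2.12 on the log2 scale (SE 0.21, adjusted p = 0.00108), and Bbs5 was at 1.93 in NSC and 10.95, 8.86 and 7.90 in the lines (log2 change 1.79, adjusted p = 0.0019), whereas Ift57 was at 19.1 in NSC and 4.49, 5.47 and 3.79 in the lines (log2 change -1.86, adjusted p = 0.00166). Foxj1, the switch for motile cilia, was at 16.9 in NSC and 1.16, 1.06 and 1.10 in the lines (log2 change -3.08, adjusted p = 0.000812). Of 19 tubulins, 5 rose (26.3%), 3 fell (15.8%) and 11 were not called, near the shares over all genes. After the rescaling without mitochondrial and selenoprotein genes 3 rose and 4 fell. Tubb2a, of neurons, was at 189 in NSC and 30.3, 50.3 and 48.7 in the lines (log2 change -2.14, adjusted p = 0.00339). Tuba4a was at 12.2 in NSC and 79.7, 64.7 and 73.7 in the lines, and rose by 2.47 on the log2 scale (SE 0.15, adjusted p = 0.000274), and Tuba3a, known from testis, was listed at 0 in NSC and at 6.29, 25.2 and 19.4 in the lines (log2 change 3.98, adjusted p = 0.008). Tubulin genes are similar in sequence, so reads may be split between them. Tubb5 was at 371 in NSC and 698, 781 and 705 in the lines, with a log2 change of 0.97 (adjusted p = 0.00127).

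Of 18 annexin and S100 genes, 6 rose, 7 fell and 5 were not called, and in 5 of 13 alternatives the falls no longer outnumbered the rises. Anxa11 was at 3.21 in NSC and 25.8, 38.1 and 36.3 in the lines (log2 change 3.01, adjusted p = 0.000789), and S100a1 was at 87.2 in NSC and 2.50, 9.43 and 6.52 in the lines (log2 change -3.76, adjusted p = 0.00582). Of 13 serpins, 6 rose, 5 fell and 2 were not called, with more falls than rises after the rescaling. Serpine2, a protease inhibitor of glia, was at 838 in NSC and 13.7, 11.5 and 10.8 in the lines, and fell by 6.02 on the log2 scale (SE 0.16, adjusted p = 4.14e-05), and it held 81.2% of the summed serpin level in NSC. Serpinb6a was at 8.52 in NSC and 41.9, 49.2 and 44.98 in the lines (log2 change 2.28, adjusted p = 0.000175). Of 25 BCL2 family and caspase genes, 5 rose, 4 fell and 16 were not called, also with more falls than rises after the rescaling. Mcl1, which protects cells from death, was at 47.6 in NSC and 168, 238 and 203 in the lines, and rose by 2.06 on the log2 scale (SE 0.21, adjusted p = 0.0011). The death-promoting genes Bbc3 and Bid rose by 1.39 and 1.64 (adjusted p = 0.00433 and 0.0106). Bax was at 223 in NSC and 295, 271 and 256 in the lines, with a log2 change of 0.29 (adjusted p = 0.0581).

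Most meiosis genes rose. Of 29 tested meiosis genes, 24 rose, 1 fell and 4 were not called, with a median of 2.57, and 11 were gained. Stra8, which starts meiosis, was at 0.102 in NSC and 29.6, 108 and 82.1 in the lines, and rose by 5.89 on the log2 scale (SE 0.76, adjusted p = 0.00242), with line 1 lowest and ESC at 7.92. Mael, which silences transposons in germ cells, was listed at 0 in NSC and at 14.1, 21.9 and 16.1 in the lines, and rose by 4.18 on the log2 scale (SE 0.28, adjusted p = 0.000355). Tdrd12 and Hormad1 rose by 4.11 and 3.72 (adjusted p = 0.000267 and 0.00301) to 22.8 ± 4.99 and 14.6 ± 7.33. The member that fell was Tdrd7, a tudor protein, which was at 18.5 in NSC and 0.941, 1.05 and 0.554 in the lines (log2 change -3.41, adjusted p = 0.000423). Summed over the class, the level was 44.7 in NSC and 239, 442 and 350.2 in the lines.

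Of 9 tested Rhox and Xlr genes, X-linked families of germline and placenta, 5 rose, 1 fell and 3 were not called. Against ESC, 4 of the 9 were called lower, beside 0.977% of all genes. Of 43 entries, 16 were at FPKM 1 or more in ESC, which the filter did not use. The summed level was 93.56, 81.42 and 108.2 in the lines, 243.4 in ESC, and 453.7 and 499.8 in IEC-CiPSC lines 10 and 13. Over all genes, the number called against ESC ranged from 60 to 838 when a line was left out. Rhox5 was at 1.68 in NSC and 77.9, 59.4 and 89.4 in the lines, and rose by 4.81 on the log2 scale (SE 0.24, adjusted p = 0.000169), at a level near the 77.8 of ESC. Xlr3a, by contrast, was at 0.578 in NSC and 0.0939, 2.92 and 0.709 in the lines, with a log2 change of 0.30 (adjusted p = 0.726), and was at 39.2 in ESC. Of 21 Mage, Pramel and Tex genes, 11 rose, 5 fell and 5 were not called. Mageb16 was listed at 0 in NSC and at 41.5, 45.1 and 42.3 in the lines, and rose by 5.46 on the log2 scale (SE 0.11, adjusted p = 2.92e-05), and Pramef12 was listed at 0 in NSC and at 7.86, 9.53 and 9.47 in the lines (log2 change 3.31, adjusted p = 0.000178). Maged1, an adaptor of neuronal cells, was at 390.0 in NSC and 39.0, 55.1 and 50.9 in the lines, and fell by 3.00 on the log2 scale (SE 0.22, adjusted p = 0.000434). Of 39 TRIM genes, 12 rose (30.8%), 7 fell (17.9%) and 20 were not called, against 21.6% higher and 24.2% lower over all genes. Trim6 was at 0.514 in NSC and 117, 92.9 and 104 in the lines, and rose by 6.12 on the log2 scale (SE 0.15, adjusted p = 3.85e-05), and Trim71, a repressor of differentiation genes, was at 0.0997 in NSC and 36.03, 22.7 and 27.4 in the lines (log2 change 4.73, adjusted p = 0.000241). Trim9, of neurons, was at 42.6 in NSC and 0.0228, 0.101 and 0.0224 in the lines, and fell by 5.38 on the log2 scale (SE 0.10, adjusted p = 2.92e-05). Of 1426 olfactory and vomeronasal receptor entries only 4 reached FPKM 1 in any of the 4 libraries, among them Olfr287, which was at 6.46 in NSC and listed at 0 in all 3 lines (log2 change -2.90, adjusted p = 8.11e-05).

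**Figure D3:**
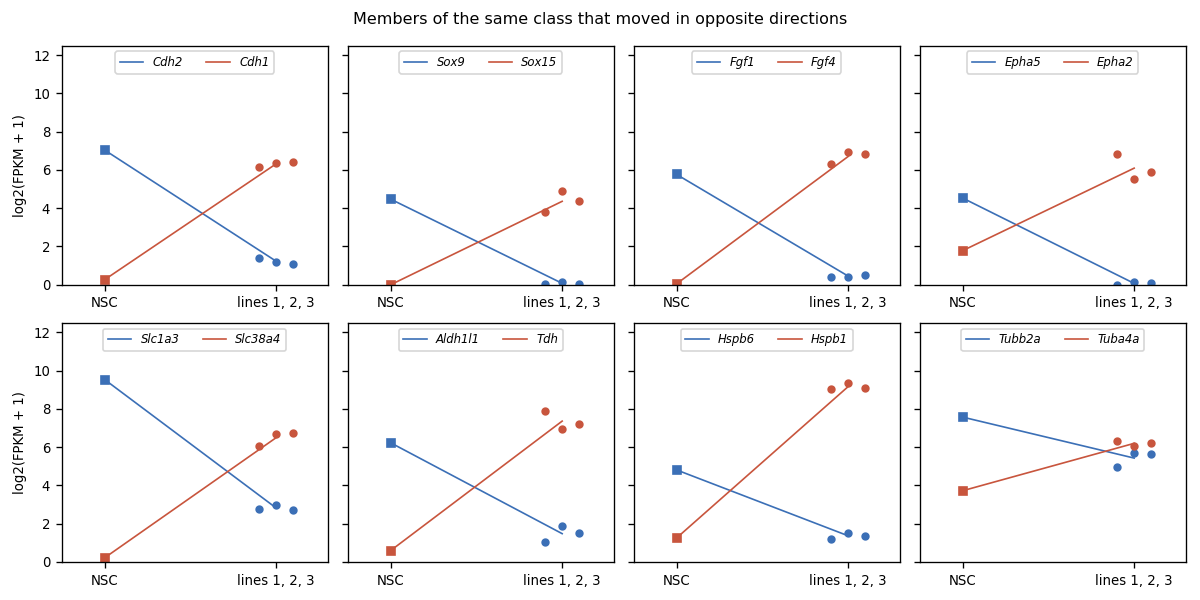
Levels as log2(FPKM + 1) of 8 pairs of genes from the same classes in NSC (square) and lines 1, 2 and 3 (circles, left to right), with a segment from NSC to the mean of the lines. In each pair the first member, such as Cdh2 or Sox9, is higher in NSC than in any line and the second, such as Cdh1 or Sox15, is lower in NSC than in any line.

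Several classes held members that moved apart, as the plot of 8 pairs shows. The pairs were Cdh2 and Cdh1, Sox9 and Sox15, Fgf1 and Fgf4, Epha5 and Epha2, Slc1a3 and Slc38a4, Aldh1l1 and Tdh, Hspb6 and Hspb1, and Tubb2a and Tuba4a, and they were chosen after their values were seen. All 16 genes were called, and in each pair the members moved in opposite directions in all 3 lines. Epha2 and Tdh were highest in line 1.

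The genes lost and gained by level were set beside ESC and IEC. The ESC comparison shares the 3 lines with the main one. Of 528 lost genes, 485 were under FPKM 1 in ESC, 2 were at 5 or more there, and 6 were called against ESC. Of 412 gained genes, 346 were at 5 or more in ESC and 21 under 1, and 33 were called higher and 16 lower than ESC, where 2.03% of all genes were called. That count of 303 genes was 838, 154 and 60 without line 1, 2 and 3, so it rests on single lines. In the intestinal source cell IEC, 199 of the 528 lost genes were at 5 or more and 185 under 1. Of the gained genes 216 were under 1 in IEC and 106 at 5 or more. Shares of all tested genes at these levels in ESC and IEC are not given here, so no overlap is read from these counts.

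Lost genes were long. Among protein-coding genes the median span from start to end in GENCODE M21 (GRCm38) was 66.8 kb for 489 lost genes, 15.8 kb for 354 gained genes, 22.5 kb for kept genes and 23.97 kb for all 13140 tested. A span of 100 kb or more was found in 43.1% of lost genes, 6.21% of gained genes and 13.8% of all. Genes that fell and genes that rose differed less, with 25.1% and 6.69% of such length. Many neural adhesion and receptor genes are long, and the span was not used to choose the sets. FPKM are scaled to transcript length, and any part of length in the calls was not tested.

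**Figure D4:**
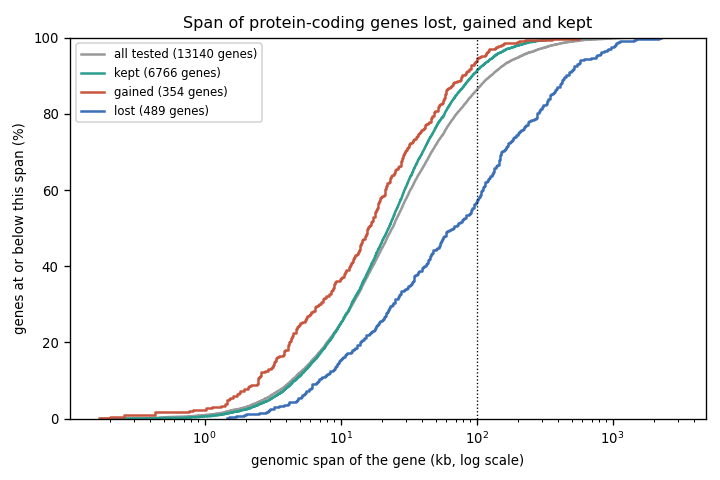
Cumulative share of protein-coding genes by span from start to end in kb on a log axis, for lost, gained, kept and all tested genes. The curve of lost genes lies to the right, with a median of 66.8 kb against 23.97 kb for all, and that of gained genes to the left at 15.8 kb.

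Some called genes lay side by side. Runs of at least 5 consecutive tested genes called in the same direction numbered 35 for higher genes, with 220 genes, and 38 for lower genes, with 217. With 21.6% of all genes called higher and 24.2% lower, such runs also form at random, and their expected number was not estimated. The longest higher run held 16 predicted genes on chromosome 12, which may share reads. The same holds for other higher runs of mostly predicted genes, such as those of 10 genes on chromosomes 5 and 13. On chromosome 7 (10900740 to 11402318, GRCm38) the 5 Zscan4 genes, which mark a passing 2-cell-like state of pluripotent cells, rose together. Zscan4c was at 0.0161 in NSC and 23.2, 36.3 and 25.6 in the lines and Zscan4f was at 0.0208 in NSC and 43.8, 70.5 and 48.8 in the lines, all below the 68.3 and 123.4 of ESC, and as near-identical copies they may share reads. Also on chromosome 7 (140954837 to 141117806), 7 neighbours from Ifitm2 to Ano9 rose, among them Ifitm3, which was at 47.1 in NSC and 221, 192 and 202 in the lines (log2 change 2.10, adjusted p = 0.000193), and Pkp3. On the X chromosome (37213804 to 38129967), Rhox1, Rhox5, Rhox6, Rhox9 and Rhox13 rose, and Rhox9 was listed at 0 in NSC and at 3.64, 3.83 and 3.81 in the lines (log2 change 2.25, adjusted p = 0.000761).

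The longest lower runs held 8 genes each, on chromosomes 2, 3 and 8. On chromosome 2 (101714285 to 103073513) the run included Slc1a2, the main glutamate transporter of astrocytes, which was at 50.9 in NSC and 0, 0.0615 and 0.00832 in the lines, and fell by 5.66 on the log2 scale (SE 0.10, adjusted p = 2.92e-05). Its neighbour Cd44, a hyaluronan receptor of progenitors and glia, was at 20.5 in NSC and 0.183, 0.243 and 0.323 in the lines, and fell by 4.11 on the log2 scale (SE 0.18, adjusted p = 0.000129), and Pdhx, of the pyruvate dehydrogenase complex, was at 57.9 in NSC and 17.7, 15.1 and 21.3 in the lines (log2 change -1.64, adjusted p = 0.0021). On chromosome 12 (24830879 to 27342574) the run held Id2, an inhibitor of basic helix-loop-helix factors, which was at 201 in NSC and 7.95, 7.17 and 7.70 in the lines, and fell by 4.56 on the log2 scale (SE 0.12, adjusted p = 4.06e-05), and Sox11, of immature neurons, which was at 16.2 in NSC and 5.95, 4.15 and 4.26 in the lines (log2 change -1.58, adjusted p = 0.00423). On chromosome 14 (16238652 to 18239127) it held Top2b, the topoisomerase of differentiated cells, which was at 60.1 in NSC and 9.35, 11.4 and 11.1 in the lines (log2 change -2.40, adjusted p = 0.000274), beside Thrb, a thyroid hormone receptor, which was at 5.79 in NSC and 0.0227, 0 and 0.0164 in the lines, and fell by 2.75 on the log2 scale (SE 0.08, adjusted p = 4.74e-05).

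The imprinted Dlk1-Dio3 region of chromosome 12 held low levels of maternal RNAs in NSC. Meg3 (109541001.0 to 109571726.0, + strand, GRCm38), a maternally expressed long RNA, was at 0.805 in NSC and 343, 83.7 and 173 in the lines, and rose by 6.57 on the log2 scale (SE 0.76, adjusted p = 0.00171). Rian (109603940.0 to 109661716.0), the next such RNA, was at 2.86 in NSC and 817, 305 and 437 in the lines, and rose by 6.95 on the log2 scale (SE 0.56, adjusted p = 0.000587). Mirg, further along, was listed at 0 in NSC and at 63.2, 13.8 and 23.6 in the lines (log2 change 4.84, adjusted p = 0.00609), and was chosen after its values were seen. For all 3 RNAs line 1 was highest and line 2 lowest, and the lines bracketed ESC for Meg3, at 149, and Mirg, at 28.7. Among the paternally expressed genes of the region, also picked with their values known, Dlk1 was at 6.67 in NSC and 10.2, 4.72 and 8.63 in the lines, with a log2 change of 0.15 (adjusted p = 0.763), and Dio3 was listed at 0 in NSC and at 1.47, 3.94 and 3.88 in the lines (log2 change 1.97, adjusted p = 0.0164).

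The neural route was compared with the intestinal one by the difference of the 2 changes, neural minus intestinal, which was called for 3970 of 14947 genes (26.6%), 11.9% above 0 and 14.6% below. On the same genes 42.8% were called in the intestinal route. These genes had passed the FPKM filter in NSC or the NSC-CiPSC lines. Class members found only in IEC or the IEC-CiPSC lines were therefore left out. Of the collagens and laminins, 41 were at FPKM 1 or more in IEC and 29 were tested. The library labelled IEC held 10 of 10 fibroblast and feeder markers and 9 of 10 microglia and macrophage markers at FPKM 1 or more, with summed levels of 8555 and 3746, against 231.6 and 1.362 in NSC, and the part of such cells in the route differences was not tested. Among collagens and laminins, 22 of 29 tested lay above 0 and 1 below, and their median change was 0.68 for the neural lines and -2.45 for the intestinal lines. Among genes of interferon response and antigen presentation 19 of 29 lay above 0 and 1 below. Kinetochore and mitotic kinase genes lay on the other side, with 28 of 42 below 0, and their median was 0.53 against 1.96. Neural immunoglobulin adhesion genes had 12 of 21 below 0 and glutamate receptors 9 of 14. The NSC and IEC levels differ at the start, so a difference of changes need not be a difference between lines.

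For 5 of 7 tested keratins the difference lay above 0 and for 0 below, while 15 keratins were at FPKM 1 or more in IEC. Krt8 was at 58.5 in IEC and 4.69 and 4.09 in the IEC-CiPSC lines, against 0.0635 in NSC and between 23.01 and 50.2 in the NSC-CiPSC lines (neural minus intestinal 8.42 on the log2 scale, adjusted p = 0.00156). Krt18 was at 53.7 in IEC and 6.14 and 4.001 in the IEC-CiPSC lines (neural minus intestinal 8.30 on the log2 scale, adjusted p = 0.00191). For both genes all 3 NSC-CiPSC lines lay above both IEC-CiPSC lines. Itga3, at 27.0 in IEC, fell in the intestinal route and rose in the neural one (neural minus intestinal 4.06 on the log2 scale, adjusted p = 0.00262). Laptm5, at 232 in IEC and known from leukocytes, did the same (neural minus intestinal 6.96 on the log2 scale, adjusted p = 0.000354). Meg3 was at 349 in IEC (neural minus intestinal 9.13 on the log2 scale, adjusted p = 0.00522) and Rian at 519 (neural minus intestinal 8.51 on the log2 scale, adjusted p = 0.00275), so both were high in the intestinal source cells. Sox2 was at 2.998 in IEC and 232 ± 7.98 (SD, n = 2) in its lines (neural minus intestinal -6.14 on the log2 scale, adjusted p = 0.000291).

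The 3 lines were not alike in every gene. They spanned at least 2-fold in 1308 genes (8.75%). Line 1 lay at least 2-fold above or below both others in 391 genes (2.62%), line 2 in 117 (0.783%) and line 3 in 74 (0.495%). In line 1, 171 of these were above and 220 below. The genes named here for line 1 were chosen after their values were seen, apart from Mycn, Meg3 and Bhlhe40. Bnip3, a mitophagy receptor induced by low oxygen, was at 55.3 in NSC and 11.5, 114.9 and 73.0 in the lines, and Ndrg1, also induced by low oxygen, was at 4.64 in NSC and 1.37, 18.6 and 9.44 in the lines. The peptide hormone gene Adm was at 9.60 in NSC and 0.0827, 10.5 and 7.13 in the lines, and Egln3, a prolyl hydroxylase that senses oxygen, was at 22.6 in NSC and 2.60, 14.1 and 13.6 in the lines. Eno2, a glycolytic enzyme, was at 3.71 in NSC and 1.34, 12.03 and 11.6 in the lines, P4ha1, of collagen synthesis, was at 31.6 in NSC and 4.88, 26.9 and 16.98 in the lines, and the clock and hypoxia factor Bhlhe40 was at 28.3 in NSC and 4.26, 52.0 and 40.9 in the lines. In all 7 genes line 1 was lowest, which for those picked by their values follows from the choice. None of the 7 was called against NSC, and without line 1 Eno2 rose by 1.44 (adjusted p = 0.00504). No list of oxygen-linked genes was followed, so those in another order were not counted, and a part of oxygen was not tested.

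Other genes, most of them also picked with their values known, stood higher in line 1. No list of ERK or BMP targets was followed, so targets in another order were not counted, and a part of these pathways was not tested. Dusp6, a phosphatase induced by ERK signalling, was at 73.8 in NSC and 14.1, 1.98 and 5.75 in the lines, and fell by 3.47 on the log2 scale (SE 0.88, adjusted p = 0.0221). Spry4, an FGF antagonist induced by the same pathway, was at 22.8 in NSC and 13.2, 0.732 and 2.34 in the lines, with a log2 change of -2.45 (adjusted p = 0.125), and was at 29.9 in ESC. Myc was at 16.9 in NSC and 20.97, 1.54 and 2.53 in the lines, with a log2 change of -1.62 (adjusted p = 0.311), and was at 11.7 in ESC. Id3, a target of BMP signalling, was at 153 in NSC and 30.95, 7.12 and 8.87 in the lines, and fell by 3.49 on the log2 scale (SE 0.86, adjusted p = 0.0198). Mycn, at 77.3 in line 1 against 18.6 and 28.5, and Meg3 showed the same order. Without line 3 neither Dusp6 nor Id3 was called (adjusted p = 0.0625 and 0.0581), and Dusp6 was not called in the fit on the 4 libraries only (adjusted p = 0.0549). Without line 1 Spry4 fell by 3.31 and Myc fell by 2.58 (adjusted p = 0.00629 and 0.00507). With 1 library a line, a difference between lines has no replicate check.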

How the data were processed

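RNA was sequenced from 8 mouse libraries, of which 4 form the comparison. Total RNA was extracted with the RNeasy kit and libraries were made with NEBNext reagents, per the labels' protocols. The deposited values are FPKM per gene. TopHat, Cufflinks and mm10 are named in the submitters' processing notes, and their versions and annotation release are not given in the sources used here. Each table held 39009 entries, of which 37537 matched GENCODE M21 symbols. Date-like symbols were restored for 27 entries, and 447 entries not marked OK by Cufflinks were left out. Depth was estimated from the deposited 95% intervals of FPKM, whose width implied whole fragment numbers, within 0.02, for 75.1% to 84.8% of genes with 5 to 60 fragments. Whole reads were thus not recovered for nearly all genes, and no count test was run.

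Genes at FPKM 1 or more in any of the 4 libraries were tested with limma 3.58.1 (R 4.3.3) on log2(FPKM + 1), with 8 libraries in 5 groups and 3 residual degrees of freedom. P-values are 2-sided and Benjamini-Hochberg adjusted over all 14947 genes. Tested on simulated data for NSC-CiPSC against NSC over 14947 genes, the fit recovered 92% of genes changed 4-fold and 100% of those changed 16-fold, with 13 false calls. The simulation gave every library, NSC included, the spread of the fit, and planted changes in a small set of genes of middle level. It therefore took NSC to vary like the lines, and the 13 false calls do not cover error from an NSC library without a replicate. Python 3.11.15 with NumPy 2.4.6 and pandas 2.3.3 made the tables, and matplotlib 3.10.9 the figures. Promoter sequences are from RefSeq (GRCm38.p6), matched by symbol.

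Genes to name were taken as the 20 largest rises and the 20 deepest falls at FPKM 10 or more, and in each class up to 4 called genes of largest change at FPKM 5 or more, up to 2 called genes moving against the majority and up to 2 uncalled genes of highest level. Markers and members of neighbouring runs were added, not every gene picked is printed, and predicted genes, microRNAs, Y-linked genes, Xist and 24 selenoprotein entries are not named. Members, classes and lists were chosen with earlier results of these data known. Alternatives changed the pseudocount (0.1, 0.5), the filter (none, FPKM 5), the scaling (quantile, median ratio, without mitochondrial and selenoprotein genes), the entries kept, the libraries fitted, and left out each line.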

Additional observations from a re-analysis of the deposited data

Results flagged for a closer look

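The change from source cell to lines differed between the neural and the intestinal route for 3970 genes by the test of the difference itself (limma, Benjamini-Hochberg adjusted). Among genes named in the report, the difference, neural minus intestinal on the log2 scale, was 8.42 for Krt8, 8.30 for Krt18, 4.06 for Itga3, 6.96 for Laptm5, 9.13 for Meg3 and 8.51 for Rian, all of which rose in the neural route. It was -6.14 for Sox2, which was not called in the neural route and rose in the intestinal. Each source cell has 1 library. The library labelled IEC held markers of fibroblasts and macrophages at summed levels of 8555 and 3746, and their part in these differences was not tested.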

How the results depend on the processing

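No paired analysis was possible because NSC has 1 library and the labels give no pairing of NSC with the lines, so no replicate block could be fitted. Over 13 alternatives the genes called numbered 5560 to 7719, those higher 2607 to 3901, those lower 2953 to 4363, lost genes 489 to 602, gained genes 353 to 501 and route differences 2937 to 4654. Leaving out a line gave 6461 to 7044 called, 3019 to 3434 higher and 3442 to 3630 lower. The comparison with ESC, with 303 genes called, moved to 193 among protein-coding genes without selenoprotein genes and ranged from 60 to 838 when a line was left out, and the cause was not tested.

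Of 276 genes named and tested, 224 were called, of which 217 kept direction and call under every alternative run, 7 lost the call under at least 1 and 0 turned direction. Of those not called, 8 were called under at least 1 alternative and 14 turned direction. After the rescaling without mitochondrial and selenoprotein genes, chosen after seeing the data, the log2 change was -0.24 for Agrn, -0.01 for Cdk1, -0.23 for Ctsa, -0.10 for Dlk1, -0.22 for Hspa9, -0.01 for Jup and -0.19 for Slc3a2. With quantile normalization it was -0.06 for Hspa9, 0.07 for Unc13a and 0.05 for Unc13b. Leaving out each line in turn gave a range of -0.01 to 0.11 for Agrn, -0.98 to 0.68 for Bhlhe40, -0.89 to 0.72 for Bnip3, -0.05 to 0.44 for Dlk1, -0.05 to 0.01 for Hnrnpa2b1, -0.18 to 1.34 for Ndrg1, -0.40 to 0.16 for Unc13a and -0.21 to 0.72 for Xlr3a. None of these genes was called with all lines. At FPKM 5 or more, where fewer genes are tested, the count of calls in the larger direction fell by more than 1.5 times in 11 classes, such as the clustered protocadherins, with 2 of 2 tested members lower in place of 7 of 7.

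NSC has 1 library, so its spread is borrowed from the other groups, and lines were not shown to come from separate animals. FPKM near 0 rest on few fragments at these depths, and changes of such genes depend on the pseudocount.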
